A study of Mus musculus with 17 samples.

Results

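The replication histone genes of mouse chromosome 13 were taken as the protein-coding genes of the mm9 annotation on that chromosome whose symbol starts with Hist1h, and 55 of 22380 protein-coding genes met this rule. They were read through H3K27ac HiChIP, which counts read pairs joining stretches of chromatin (anchors) that carry acetylated H3K27, found where promoters and enhancers are in use. Of 216081 joined anchors, 33 lay no more than 5 kb from where one of these genes starts (TSS), and 1150 of 1211657 loops had such an anchor at an end. These loops held 4051 of 2025314 read pairs.

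The cells were R1 mouse embryonic stem cells grown as embryoid bodies from hanging drops, with retinoic acid at 0.5 µM for 4 days in both groups. The 12 bulk libraries came from unsorted cells. The 5 libraries titled cluster2 came from cells sorted as EpCAM and CD38 double positive, and are called double positive here. The paper describes 5 sorting runs, and the labels do not say that each library came from a run of its own. No genotype or dose differed between the groups. The stem cells had first been grown on a feeder layer of mouse embryonic fibroblasts, and in unsorted and sorted cells alike a contact made by more cells and a contact made more often per cell cannot be told apart.

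Replication histone genes encode the proteins around which newly copied DNA is wound: the core histones H2A, H2B, H3 and H4 and the linker histone H1. Cells use them mainly during S phase, and most lie side by side in clusters, whose transcription and RNA processing take place in a nuclear compartment called the histone locus body. Their transcripts carry no poly(A) tail and end instead just after a short hairpin, the stem-loop, which is bound by SLBP. The members comprised 6 H1, 14 H2A, 15 H2B, 9 H3 and 11 H4 genes.

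The stem-loop is shown because it is the feature that sets these genes apart from nearly all others, and the rule did not use it. The letters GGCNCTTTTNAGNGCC were searched for on the coding strand in the 100 bases after the stop codon. They were found in 49 of 55 members (89.1%) and in 12 of 21875 other protein-coding genes (0.0549%), among them H2afx and 10 genes named Hist2h, Hist3h or Hist4h. The site started from 23 to 55 bases after the stop codon, with a median of 30. One site is printed for each histone type, in the member of that type with the most read pairs, with the stem-loop in capitals. Hist1h3g, the H3 gene with the most read pairs, had no such site in this window, so Hist1h3d is shown in its place. In mm9 the capitals lie, all on the plus strand, at chr13:23647656-23647671 for Hist1h1d, chr13:23626228-23626243 for Hist1h2af, chr13:22128169-22128184 for Hist1h2bk, chr13:23668113-23668128 for Hist1h3d and chr13:23623327-23623342 for Hist1h4h.
Hist1h1d: caaacGGCTCTTTTCAGAGCCaccca
Hist1h2af: ccaaaGGCTCTTTTCAGAGCCaccac
Hist1h2bk: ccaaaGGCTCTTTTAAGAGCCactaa
Hist1h3d: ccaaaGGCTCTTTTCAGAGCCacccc
Hist1h4h: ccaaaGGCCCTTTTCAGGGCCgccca
The H4 genes had a stem of their own: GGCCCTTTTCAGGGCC in 7 and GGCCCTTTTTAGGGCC in 1. The sequence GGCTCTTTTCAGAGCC was found in 33 of 55 members, and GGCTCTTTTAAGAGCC in 1 H1, 4 H2B and 3 H3 genes.

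The promoters differed by histone type. RefSeq promoters (GRCm38.p6, the 250 bases before the start) matched 50 of 55 members, of which 47 were found at a single place in mm9 chromosome 13. Motifs were searched on both strands. CCAAT was present in all 39 matched H1, H2A, H2B and H3 promoters, in 3 of 11 H4 promoters and in 34.4% of 26975 other promoters. The octamer ATTTGCAT was present in 5 of 12 H2A and 5 of 14 H2B promoters, in no other member and in 1.58% of other promoters. H2A and H2B genes that start head to head share part of these bases, so a site can count for both genes. The H1 box AAACACA was present in 5 of 6 H1 promoters, in 2 of 12 H2A, 2 of 14 H2B and no H3 or H4 promoter, and in 6.20% of other promoters. TATAAA was present in 26 of 50 members against 12.9% of other promoters. No motif contains another, though their ends can overlap, and a match is a description and not a bound site. The 150 bases before the start are shown for an H1, an H2B and an H4 gene, with these motifs in capitals on either strand. They lie on the plus strand at chr13:23646751-23646900 for Hist1h1d, chr13:22127540-22127689 for Hist1h2bk and chr13:23622763-23622912 for Hist1h4h. The Hist1h2bk stretch is also the upstream side of Hist1h2ah, which runs the other way from 178 bp away.
Hist1h1d: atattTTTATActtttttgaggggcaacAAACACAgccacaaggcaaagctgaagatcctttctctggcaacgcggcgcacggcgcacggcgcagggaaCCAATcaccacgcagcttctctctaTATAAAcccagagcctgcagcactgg
Hist1h2bk: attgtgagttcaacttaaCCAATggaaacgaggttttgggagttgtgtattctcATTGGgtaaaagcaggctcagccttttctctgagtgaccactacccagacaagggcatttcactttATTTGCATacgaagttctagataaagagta
Hist1h4h: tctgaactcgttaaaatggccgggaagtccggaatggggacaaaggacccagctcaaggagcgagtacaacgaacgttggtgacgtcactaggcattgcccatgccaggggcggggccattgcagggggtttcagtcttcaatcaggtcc
None of the 4 motifs was in the Hist1h4h stretch. Many members lie head to head: 11 pairs of neighbours had their starts within 500 bp on opposite strands, from 168 to 306 bp apart, and all 11 joined an H2A with an H2B gene.

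Start sites with gaps of at most 100 kb were put into the same subcluster, which gave 5. Subcluster 1 held 18 genes from Hist1h2bl to Hist1h2br (chr13:21808012-21925627), and subcluster 2 held 5 genes from Hist1h2ah to Hist1h2bj (chr13:22127512-22135083). Subcluster 3 was the largest, with 29 genes from Hist1h4h to Hist1h1a (chr13:23622919-23855537), and held 5 of the 6 H1 genes. Hist1h2ba and Hist1h2aa, a pair known from the testis, formed subcluster 4, and Hist1h2al stood alone as subcluster 5, 27272103 bp further on. Subclusters 1 and 2 lay 201885 bp apart, and 1487836 bp parted subclusters 2 and 3. That stretch held 38 protein-coding genes, of which 33 were vomeronasal receptor genes (Vmn1r), used for smell.

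Reads that fit several near-identical genes cannot be placed on one of them, so the share of each member that is unique in the genome was counted. In 23 of 55 members fewer than 50% of the stretches of 75 bases, the length of a read, were unique in mm9. Hist1h2bq, Hist1h2ao and Hist1h4m had no anchor within 5 kb, and 0%, 0% and 10.98% of their 75-base stretches were unique. Hist1h2br, Hist1h2ap and Hist1h4n, with unique shares of 0%, 0% and 8.71%, had an anchor within 5 kb of which 73.2% was unique. Over the 27 anchors of both groups the lowest unique share was 68.7%. The part of unplaced reads in the values was not tested.

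Of the 55 members, 52 had an anchor within 5 kb and 50 passed the filter (20 or more read pairs in all, spread over 5 or more libraries). A start site lay inside an anchor for 49. Neighbouring members read the same anchors, so the 50 tested genes stand for 26 different sets of anchors and are not 50 separate measurements. Hist1h2ba and Hist1h2aa had 9 bulk read pairs and none in double positive cells, and were not tested. Hist1h2al had 27 bulk read pairs and none in double positive cells, where no anchor of subclusters 4 and 5 was listed, and no fold is given.

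The 2 groups were listed on anchor sets of very different size. The deposited bulk loops used 217412 anchors and the double positive loops 15082, and 15074 of the joined anchors were in both sets. Listed read pairs ranged from 65148 to 241068 per bulk library (median 135054) and from 50508 to 118179 per double positive library (median 85966). Between 8.40% and 16.1% of a bulk library's read pairs joined anchors of both sets. Values from loops with both ends in both sets (shared anchors) are therefore given beside the main counts, with the shares and medians over all features. Shared anchors are nearly the whole double positive set and a small part of the bulk set, so they are in effect chosen through the double positive group. Of the sorting markers, Epcam had 13 bulk and 25 double positive read pairs and Cd38 had 36 and 51, and neither passed the test with all loops. Over shared anchors Cd38 was higher (log2 fold change 1.86, adjusted p = 0.00449, edgeR) and Epcam was not called (0.35, adjusted p = 0.649, edgeR). Among endoderm markers 6 of 9 were higher in double positive cells, led by Krt18, where 20.9% of all genes were higher and 42.5% lower. Sums are given in read pairs per 1000000 counted over genes after scaling (TMM). They ran from 332 to 750 in bulk and from 1619 to 2055 in double positive libraries. Sox17 (log2 fold change -0.55), Lama1 (-0.39) and Gata6 (0.04) were not called. Over shared anchors 8 of 9 were higher, with Sox17 at 4.01, against 25.9% of all genes. All 6 tested neural markers were lower, with sums from 705 to 1557 and from 38.7 to 87.6, and Sox3 had no read pair in either group. Over shared anchors all 5 tested neural markers were lower, against 9.97% of all genes. Feeder fibroblast markers summed on the same scale to between 0 and 152 in bulk libraries and to between 19.9 and 58.6 in double positive libraries, with Postn and Thy1 at 0 there. Of 2 tested pluripotency markers 1 was higher and 1 lower, with sums from 57.7 to 475 and from 23.9 to 107 and with Esrrb and Nanog at 0 in double positive cells. Of 2 tested blood markers 1 was lower, Ptprc, with 44 bulk read pairs and none in double positive cells, and Hba-a1 had 61 and 74. The part of these differences in the histone values was not tested.

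The question of the comparison between groups was which contacts differ in the sorted cells. Before TMM scaling, loops with a Hist1h anchor held 998 ± 302 (SD, n = 12) of every 1000000 listed read pairs in bulk and 5785 ± 370 (SD, n = 5) in double positive libraries. The groups lay apart, from 600 to 1523 against 5304 to 6279. Over shared anchors the same measure was 5433 ± 1028 in bulk and 5785 ± 370 in double positive libraries, and the groups overlapped. Levels are given as CPM, the read pairs per 1000000 counted over all features of the same kind (genes, anchors, loops or bin pairs) after TMM scaling. An anchor total counts a read pair at both of its ends, and a gene total counts it for every gene near it. CPM of genes, anchors and loops are therefore not on a common scale. Gene levels were higher in double positive cells at 40 of the 50 tested members and lower at 1, Hist1h2al (edgeR quasi-likelihood test with Benjamini-Hochberg adjustment over 14115 genes). Over all genes tested, 20.9% were higher and 42.5% were lower. The median log2 fold change was 1.21 over the tested members and -0.50 over all genes. Over shared anchors 10 of 49 tested members were higher and 6 were lower, against 25.9% and 9.97% of 9845 genes, and their median of 0.29 lay below the 0.43 of all genes. All 10 were among the 40, and 30 were called higher only when all loops were used.

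By histone type, 6 of 6 H1, 10 of 12 H2A, 12 of 13 H2B, 5 of 9 H3 and 7 of 10 H4 genes tested were higher, and the medians of the types lay between 1.06 (H1) and 1.30 (H2B) on the log2 scale. Over shared anchors 1 of 6 H1, 2 of 11 H2A, 3 of 13 H2B, 2 of 9 H3 and 2 of 10 H4 genes were higher, and 1 H2A, 3 H3 and 2 H4 genes were lower. For the counts by type and by subcluster, the shares over all genes were 20.9% higher and 42.5% lower with all loops. Over shared anchors those shares were 25.9% and 9.97%. The log2 fold change was above 0 with all loops and below 0 over shared anchors at 17 of the 49 members tested both ways. Of these 17, 8 had been called higher with all loops, among them the H1 genes Hist1h1d (0.74 and -0.42) and Hist1h1e (0.99 and -0.06), and 6 were called lower over shared anchors, led by Hist1h3e (0.11 and -0.96, adjusted p = 0.000230, edgeR). None was called both ways. By position the medians also differed, though neighbouring members of a subcluster share anchors and are not separate measurements. In subcluster 1 the median was 1.32 with all loops and 0.48 over shared anchors, in subcluster 2 it was 1.20 and 0.21, and in subcluster 3 it was 0.99 and -0.06. Over shared anchors 7 of 15 tested members were higher in subcluster 1 and 3 of 29 in subcluster 3, where 6 were lower. The 5 members of subcluster 2 had values of 0.21 or 0.45 there (adjusted p = 0.492 and 0.187, edgeR).

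Hist1h2bl and Hist1h2ai, an H2B and an H2A gene read through the same anchors, had from 17.2 to 119 CPM in bulk libraries with a median of 56.2, and 230, 220, 302, 222 and 235 in double positive libraries. All 5 lay above all bulk libraries, with a log2 fold change of 1.96 (SE 0.25, adjusted p = 3.25e-08, edgeR) and 1.04 over shared anchors. Hist1h2ab, an H2A gene of subcluster 3, had from 92.0 to 207 in bulk libraries with a median of 140, and 362, 293, 333, 397 and 378 in double positive libraries, again without overlap. Its log2 fold change was 1.24 (SE 0.19, adjusted p = 1.32e-06, edgeR), but 0.29 over shared anchors (adjusted p = 0.321, edgeR). Hist1h3h and Hist1h2bm, an H3 and an H2B gene next to Hist1h2bl, had from 17.2 to 87.6 in bulk libraries (median 36.0) and 179, 142, 209, 159 and 183 in double positive libraries. These did not overlap either, with a log2 fold change of 1.99 (SE 0.27, adjusted p = 1.28e-07, edgeR) and 1.12 over shared anchors (adjusted p = 0.00114, edgeR).

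The 3 most contacted members of subcluster 2, Hist1h2ah, Hist1h2bk and the H4 gene Hist1h4i, read the same anchors. They had from 65.8 to 216 CPM in bulk libraries (median 133) and 348, 342, 279, 318 and 319 in double positive libraries, without overlap. The log2 fold change was 1.20 (SE 0.21, adjusted p = 7.81e-06, edgeR), and 0.21 over shared anchors (adjusted p = 0.492, edgeR). Hist1h4j, the most contacted gene of subcluster 1, had from 46.0 to 205 in bulk libraries (median 141) and 212, 190, 240, 151 and 167 in double positive libraries. The groups overlapped, with a log2 fold change of 0.42 (SE 0.24, adjusted p = 0.125, edgeR). Without overlap between groups were 20 of the 50 tested members and 7.58% of all genes.

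The anchors give the same data without counting a stretch several times. Of the 33, 29 were tested, and 23 were higher and 2 lower in double positive cells, where 10.5% of 43452 anchors were higher and 75.5% lower, and the median log2 fold change was 1.13 over the 29 and -4.38 over all. The 2 lower anchors, near Hist1h4j (chr13:21830945-21833769) and Hist1h4h (chr13:23616087-23619456), were not in the double positive set. They had 34 and 75 bulk read pairs and none in double positive cells, so no fold is given. Over shared anchors 9 of 27 were higher and 2 lower, against 32.5% and 15.2% of 12510 anchors, with a median of 0.39 beside 0.53 over all. In 10 of the 29 all 5 double positive libraries lay above all 12 bulk libraries, which was so for 3.65% of all anchors.

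**Figure D1:**
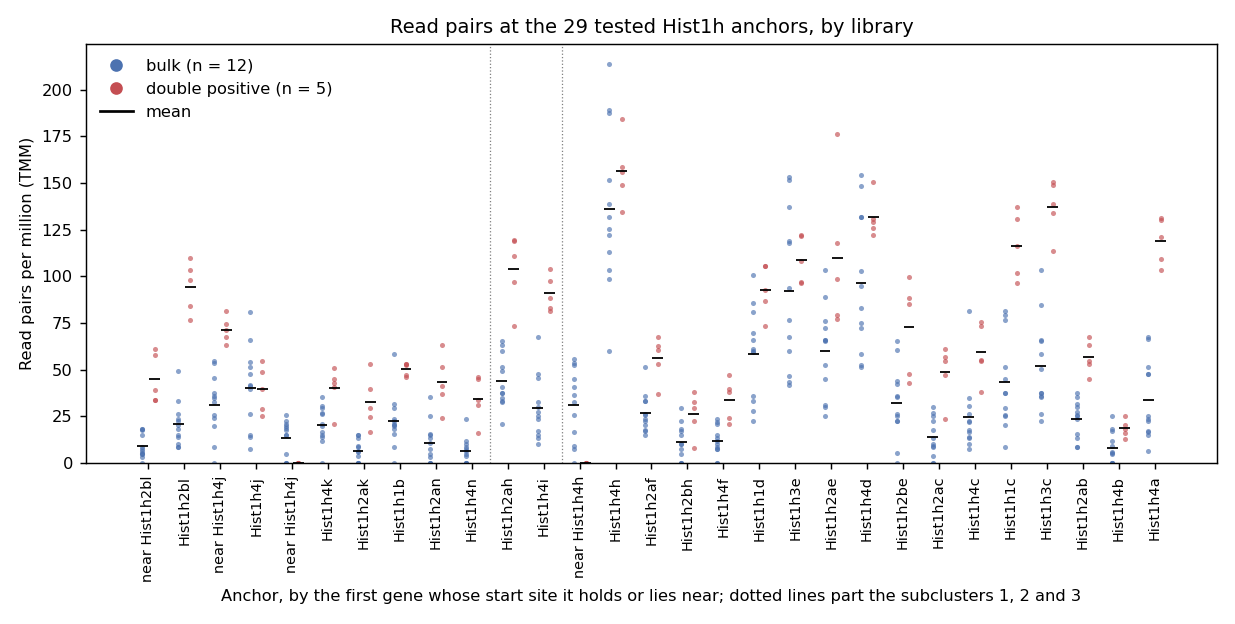
Level in CPM at the 29 tested Hist1h anchors, 1 point per library, with black bars at the mean of the 12 bulk and the 5 double positive libraries. Double positive points lie above all bulk points at 10 anchors, and the Hist1h4h anchor, the most contacted, overlaps between the groups.

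The most contacted member was Hist1h4h, an H4 gene at the near end of subcluster 3 (chr13:23622919-23623388). The anchor over its start (chr13:23621498-23624220) had from 60.1 to 214 CPM in bulk libraries with a median of 129, and 149, 135, 159, 156 and 184 in the 5 double positive libraries. The groups overlapped, with means of 136 ± 43.5 (SD, n = 12) and 156 ± 18.1 (SD, n = 5). The log2 fold change was 0.18 (SE 0.23, adjusted p = 0.468, edgeR) and -0.52 over shared anchors (adjusted p = 0.0704, edgeR). With all anchors within 5 kb, the gene had from 169 to 511 CPM in bulk libraries (median 380) and 384, 317, 402, 421 and 438 in double positive libraries, which overlapped. Its log2 fold change was 0.10 (SE 0.19, adjusted p = 0.671, edgeR), and over shared anchors it was among the lower members at -0.61 (adjusted p = 0.0161, edgeR). Its neighbours Hist1h2af and Hist1h3g had 0.27 (adjusted p = 0.195, edgeR) and the same -0.61 over shared anchors.

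The H3 gene Hist1h3e showed a like pattern. Its anchor (chr13:23653167-23656079) had from 41.8 to 153 CPM in bulk libraries with a median of 85.3, and 121, 108, 122, 96.9 and 96.6 in double positive libraries. All 5 lay within the bulk range, with a log2 fold change of 0.20 (SE 0.26, adjusted p = 0.470, edgeR). Over shared anchors it was among the 2 lower anchors, with a log2 fold change of -0.70 (adjusted p = 0.0172, edgeR), and the other was the anchor over the H4 gene Hist1h4j at -0.74 (adjusted p = 0.0371, edgeR).

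Other anchors differed between the groups without overlap. The anchor over Hist1h2bl, Hist1h2ai, Hist1h3h and Hist1h2bm (chr13:21806160-21815414), genes for H2B, H2A and H3 at the start of subcluster 1, had from 8.36 to 49.5 CPM in bulk libraries with a median of 19.3. The 5 double positive libraries had 97.9, 76.5, 110, 84.2 and 103, all above every bulk library. Its log2 fold change was 2.06 (SE 0.29, adjusted p = 2.39e-08, edgeR) and over shared anchors 1.37 (adjusted p = 8.64e-05, edgeR). The anchor before it (chr13:21801166-21804310) had from 0 to 18.3 CPM in bulk libraries (median 7.05) and 39.2, 58.0, 61.0, 33.7 and 33.7 in double positive libraries, again without overlap. Its log2 fold change was 2.20 (SE 0.38, adjusted p = 1.97e-06, edgeR) and 1.37 over shared anchors (adjusted p = 0.00294, edgeR).

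At the far end of subcluster 3, the anchor over Hist1h4a, Hist1h3a and the linker histone gene Hist1h1a (chr13:23851905-23856573) had from 6.59 to 67.5 CPM in bulk libraries with a median of 24.4. The double positive libraries had 131, 121, 130, 110 and 103, again above all bulk libraries. The log2 fold change was 1.67 (SE 0.28, adjusted p = 1.12e-06, edgeR) and 1.12 over shared anchors (adjusted p = 0.000446, edgeR). The largest value over shared anchors was 2.04 (SE 0.50, adjusted p = 0.000277, edgeR), at the anchor over the start of Hist1h4n. This anchor had 15 bulk read pairs in all, and 73.2% of it was unique, as given above.

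**Figure D2:**
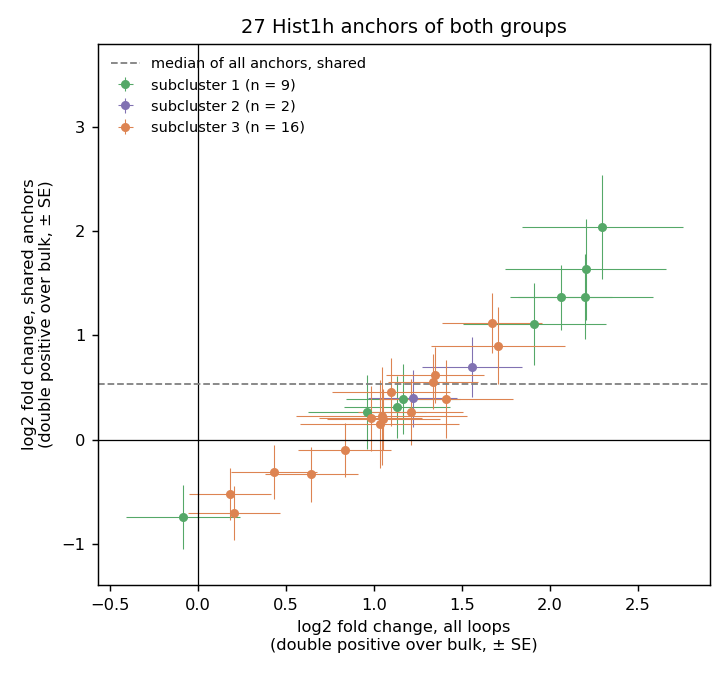
Log2 fold change of double positive over bulk at the 27 Hist1h anchors of both groups, from all loops (x axis) and from shared anchors only (y axis), with standard errors and the median over all anchors as a dashed line. All 27 values are lower on the y axis than on the x axis, and over shared anchors 9 were called higher and 2 lower.

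The 3 further anchors with the most read pairs lie in subcluster 3. The anchor over 5 genes from Hist1h2ae to Hist1h3d (chr13:23662081-23668509) had from 25.1 to 103 CPM in bulk libraries with a median of 65.7, and 176, 79.1, 77.2, 118 and 98.9 in double positive libraries. The groups overlapped, with a log2 fold change of 0.83 (SE 0.26, adjusted p = 0.00335, edgeR) and -0.10 over shared anchors. The anchor over the H4 gene Hist1h4d (chr13:23672235-23679847) overlapped too, at 0.43 (SE 0.25, adjusted p = 0.0971, edgeR) and -0.31 over shared anchors. The anchor over Hist1h3c and Hist1h2bb (chr13:23836624-23840319) did not overlap, at 1.33 (SE 0.26, adjusted p = 9.47e-06, edgeR) and 0.56 over shared anchors (adjusted p = 0.0673, edgeR).

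In subcluster 2 the anchor over the divergent genes Hist1h2ah and Hist1h2bk (chr13:22125877-22128908), whose promoter is printed above, had from 20.7 to 65.3 CPM in bulk libraries with a median of 39.1. It had 119, 111, 73.2, 96.9 and 119 in double positive libraries, above all bulk libraries. The log2 fold change was 1.22 (SE 0.25, adjusted p = 2.94e-05, edgeR) with all loops, and over shared anchors it was 0.40 (adjusted p = 0.222, edgeR). The next anchor, over Hist1h4i, Hist1h2ag and Hist1h2bj (chr13:22131687-22136749), had from 10.3 to 67.5 CPM in bulk libraries (median 26.1) and 104, 97.6, 81.3, 88.5 and 83.1 in double positive libraries. It did not overlap, with a log2 fold change of 1.56 (SE 0.29, adjusted p = 4.59e-06, edgeR) and 0.69 over shared anchors (adjusted p = 0.0373, edgeR).

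Single loops between histone anchors were thinly covered. Of the 1150 loops 30 were tested, 24 within a subcluster and 6 to an anchor outside, and no loop between subclusters had enough read pairs. Of the 30, 8 were higher and 2 lower, against 38.1% and 22.4% of 5369 loops, and their median log2 fold change was 0.42 beside 0.78 for all loops. Over shared anchors 9 of 29 were higher and 1 lower, against 52.1% and 11.5% of 4789 loops, with a median of 0.84 beside 1.27. In simulated loops, which lacked the difference in anchor sets between the groups, 18.6% of calls were false. The count of 8 fell to 4 without double positive replicate 1, 4 or 5, the count of 2 rose to 4 without replicate 1, and scaling by the total alone gave 27 higher and 1 lower.

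The loop with the most read pairs joined the anchor of Hist1h1c, a linker histone gene, with that of Hist1h3c and Hist1h2bb 7449 bp away (chr13:23828876-23833169 with chr13:23836624-23840319). Bulk libraries had from 0 to 7 read pairs with a median of 1, and double positive libraries 23, 9, 6, 9 and 13. The groups overlapped, and the log2 fold change was 1.02 (SE 0.41, adjusted p = 0.0247, edgeR). A loop of subcluster 1, from the Hist1h2bl anchor to chr13:21819041-21823133 next to Hist1h4j, had 4 read pairs over the 12 bulk libraries and 7, 5, 5, 4 and 10 in the double positive libraries. It had no overlap between groups and a log2 fold change of 2.33 (SE 0.64, adjusted p = 0.000706, edgeR). The loop from Hist1h4h to Hist1h3e went the other way, with 0 to 6 read pairs in bulk libraries (median 1.5) and 1, 2, 1, 0 and 3 in double positive libraries. The log2 fold change was -1.88 (SE 0.59, adjusted p = 0.00372, edgeR), and -1.61 over shared anchors, but 0.29 when libraries were scaled by their total alone. The other lower loop joined the Hist1h4h anchor to the one before it, which was not in the double positive set, and had 21 bulk read pairs and none in double positive cells.

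Loops around Hist1h3e overlapped between the groups. The loop to the anchor of Hist1h2ae to Hist1h3d had 1 to 7 read pairs in bulk libraries (median 3) and 22, 3, 2, 3 and 5 in double positive libraries, of which replicate 1 stood apart. Its log2 fold change was -0.66 (SE 0.40, adjusted p = 0.143, edgeR). The loops to Hist1h4d and Hist1h1d had log2 fold changes of -0.68 (adjusted p = 0.186, edgeR) and -0.42 (adjusted p = 0.428, edgeR).

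Further loops were higher in double positive cells. The loop from the anchor of Hist1h2ae to Hist1h3d to that of Hist1h4d had 0 to 3 read pairs in bulk libraries (median 1.5) and 19, 7, 5, 5 and 11 in double positive libraries (log2 fold change 1.00, SE 0.45, adjusted p = 0.0431, edgeR). The loop between the 2 anchors of subcluster 2 had 0 to 2 in bulk libraries and 17, 9, 2, 4 and 10 in double positive libraries (1.85, SE 0.53, adjusted p = 0.00123, edgeR). At the far end of subcluster 3, the loop from the anchor of Hist1h2ab to that of Hist1h4a had 2 bulk read pairs in all and 1, 6, 4, 4 and 9 in double positive libraries (2.76, SE 0.72, adjusted p = 0.000425, edgeR). The loop from Hist1h1c to Hist1h4a had 5 bulk read pairs in all and 5, 8, 3, 5 and 1 in double positive libraries (1.63, SE 0.64, adjusted p = 0.0198, edgeR).

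The read pairs of histone anchors ended on other histone anchors in large part. Within a subcluster lay 39.4% ± 5.54 (SD, n = 12) of them in bulk and 46.1% ± 3.44 (SD, n = 5) in double positive libraries. Over shared anchors the order was the other way, with 54.9% ± 6.57 in bulk and 46.1% ± 3.44 in double positive libraries within a subcluster, and the groups overlapped in both. With all loops, between subclusters lay 6.49% ± 2.42 and 8.90% ± 0.843, and the rest went to anchors outside the histone genes. The shares between subclusters ranged from 3.74% to 12.96% in bulk and from 7.99% to 10.1% in double positive libraries, so the groups overlapped. Bulk replicate 12, at 12.96%, rests on 7 of 54 read pairs (95% exact binomial interval 5.37% to 24.9%), and double positive replicate 1, at 8.76%, on 65 of 742 (6.83% to 11.03%). Such intervals cover counting error only, as amplified reads are not independent molecules. Over shared anchors the share between subclusters was 9.05% ± 3.21 in bulk and 8.90% ± 0.843 in double positive libraries.

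**Figure D3:**
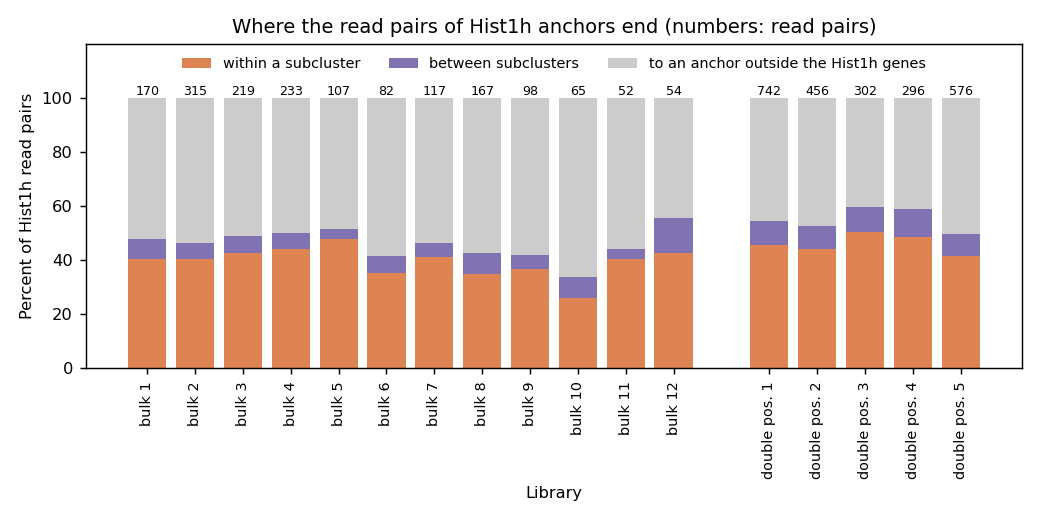
Percent of the read pairs of Hist1h anchors, per library, that stayed within a subcluster, joined different subclusters or ended outside the histone genes, with the number of read pairs above each bar. The purple share, between subclusters, lies from 3.74% to 12.96% in bulk and from 7.99% to 10.1% in double positive libraries.

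Contacts bridged the stretch of vomeronasal receptor genes in nearly every library. Between subclusters 2 and 3 there were 46 bulk read pairs, in 11 of 12 libraries, with 0 to 9 per library and a median of 4. The double positive libraries had 15, 14, 9, 9 and 9, or 56 in all. Between subclusters 1 and 3, whose joined anchors lay from 1701024 to 1997824 bp apart, there were 41 bulk read pairs (0 to 8 per library, median 2.5) and 37, 18, 12, 14 and 20 in double positive libraries. The loops end at 2000 kb, and part of the possible pairs of subclusters 1 and 3 lie beyond that limit. Between subclusters 1 and 2, from 205557 to 331480 bp apart, 14 bulk and 50 double positive read pairs were listed.

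**Figure D4:**
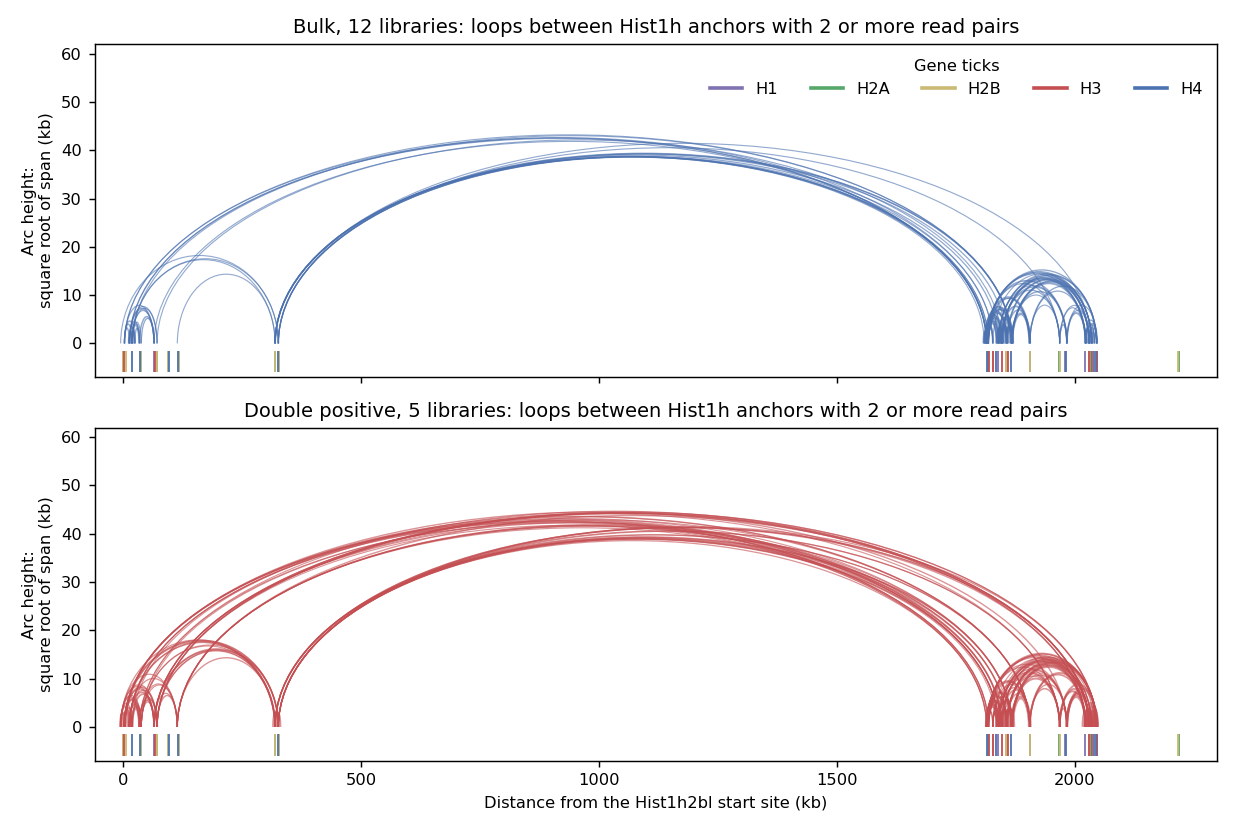
Loops joining Hist1h anchors of subclusters 1 to 4 that had 2 or more read pairs, in bulk and in double positive cells, along the distance from the Hist1h2bl start site. Line width grows with the read pairs, arc height is the square root of the span, and ticks mark the genes by histone type. Arcs of over 1000 kb join subclusters 1 and 2 with subcluster 3 in both groups.

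Few read pairs were listed in the stretch in between. From the first to the last vomeronasal receptor gene (chr13:22179747-23342192) 39 anchors were listed, none in the double positive set, with a median of 2 bulk read pairs each and 96 in all. The 29 anchors of subclusters 1 to 3 had a median of 65 bulk read pairs, and the median over the autosomal anchors of the bulk set was 8.

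The stretches that hold subclusters 2 and 3 were set against all contacts of 1000 kb or more. With the genome in bins of 50 kb, the pair of bins that holds subcluster 2 and the Hist1h4h end of subcluster 3 (chr13:22100001-22150000 with chr13:23600001-23650000) had 49 bulk read pairs. It ranked 1 of 114548 autosomal bin pairs at least 1000 kb apart with a bulk read pair, whose median was 1. In double positive cells it had 37 read pairs and ranked 3 of 14014, where the highest had 65. A bin pair counts every anchor in its bins, also those that are not Hist1h. Between the histone anchors of subclusters 2 and 3 there were 46 bulk read pairs in all, fewer than these 49. The part of other anchors in the rank was not tested. This bin pair was picked out after its values were seen. Bulk libraries had from 0 to 8 read pairs in it with a median of 4, and double positive libraries 12, 10, 2, 4 and 9. It overlapped between groups, with a log2 fold change of -0.07 (SE 0.41, adjusted p = 0.896, edgeR) beside a median of -1.23 over 16470 bin pairs. Over shared anchors it was -0.55 (adjusted p = 0.223, edgeR) beside a median of 1.01, so the pair lay above the median of all bin pairs with all loops and below it over shared anchors. Of the 27 tested bin pairs with histone start sites in both bins, 11 were higher and none was lower (edgeR, also none at an unadjusted p under 0.05 and none by DESeq2), against 16.5% and 49.3% of all bin pairs. Of these, 7 joined different subclusters, and 4 of the 7 were higher with all loops and 1 over shared anchors. The 5 bin pairs with the most read pairs lay within subclusters 1 and 3. The bin of subcluster 1 that starts at 21800001, paired with itself, had from 1 to 15 bulk read pairs per library (median 6) and 45, 29, 23, 10 and 27 in double positive libraries (log2 fold change 1.09, SE 0.30, adjusted p = 0.000958, edgeR). The bin at 23800001 paired with itself was higher too, at 1.14 (SE 0.31, adjusted p = 0.000578, edgeR), but not past the threshold over shared anchors (0.69, adjusted p = 0.0517, edgeR). The bins at 23600001 and 23650001 had 0.24 with each other (adjusted p = 0.458, edgeR), and 0.21 and 0.04 each with itself (adjusted p = 0.571 and 0.919, edgeR). Over shared anchors 6 of 26 were higher, against 44.7% of 6717, and their median was 0.57 beside 1.01 for all.

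The excess over other anchors grew with distance. Read pairs were counted per pair of anchors that a group could have joined, for histone anchors and for all other autosomal anchors in the same class of span. Over shared anchors the ratio of the first to the second at 5 to 20 kb was 1.19 ± 0.297 (SD, n = 12) in bulk and 1.16 ± 0.167 (SD, n = 5) in double positive libraries. At 100 to 200 kb it was 1.76 ± 0.871 and 1.64 ± 0.388, and at 200 to 500 kb it was 1.93 ± 0.712 and 2.36 ± 0.441. At 1000 to 2000 kb it was 8.67 ± 3.44 in bulk, from 83 read pairs over 151 pairs of anchors, and 7.15 ± 1.36 in double positive libraries, from 157 read pairs over the same 151. It was above 4 in each of the 17 libraries there, from 4.38 to 14.7 in bulk and from 4.95 to 8.37 in double positive libraries, and the groups overlapped. No histone anchors lay 500 to 1000 kb apart.

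**Figure D5:**
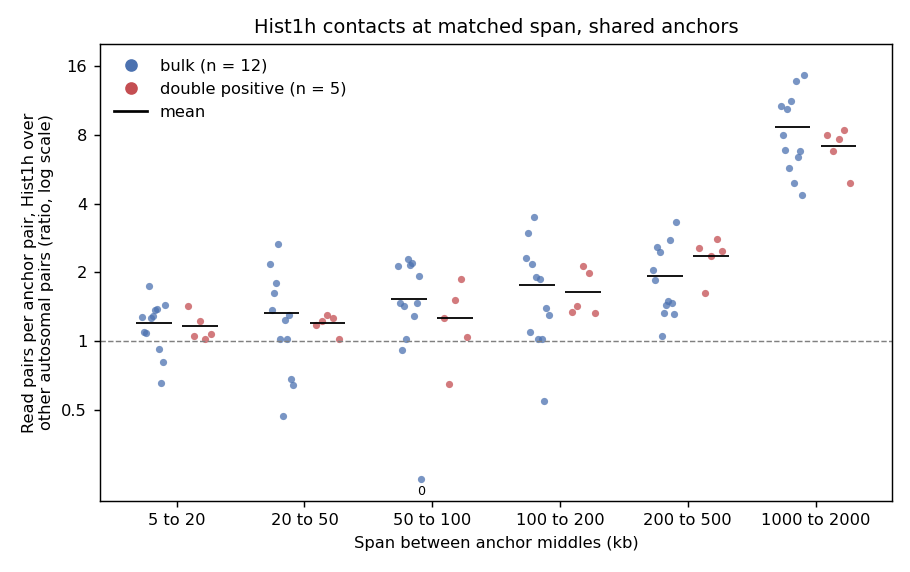
Read pairs per pair of shared anchors, Hist1h over other autosomal pairs of the same span class, on a log axis, 1 point per library with black bars at the mean. The bulk library marked 0 had no Hist1h read pair in its class and is drawn at the foot of the axis. Means rise from 1.19 in bulk and 1.16 in double positive libraries at 5 to 20 kb to 8.67 and 7.15 at 1000 to 2000 kb.

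These ratios depend on what the histone anchors are set against. With each group's own anchor set the ratio at 1000 to 2000 kb was 64.9 ± 29.4 in bulk and 7.15 ± 1.36 in double positive libraries. As given above, the autosomal anchors of the bulk set had a median of 8 bulk read pairs. With chromosome 13 alone in place of all autosomes, the double positive value fell to 4.31 and the bulk value was 66.3. Histone anchors were also among the more contacted and slightly wider ones: in the double positive set those of subclusters 1 to 3 had a median of 103 read pairs, against 34 over all its autosomal anchors, and a median width of 3593 bp against 3210 bp. The part of contact level, width and the lack of anchors in the stretch between was not tested.

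Outside the histone genes, 867 loops with 1986 read pairs led to other anchors, and 28.2% of these read pairs in bulk and 47.6% in double positive cells went to an anchor within 5 kb of another protein-coding start site. These shares use all loops, with each group on its own anchor set, and were not counted over shared anchors or for loops of other genes. The part of the anchor sets in this difference was not tested. The 10 partner genes with the most read pairs were Zfp184, Abt1, Hfe, Btn1a1, Btn2a2, Zfp187, Zkscan3, Lrrc16a, Zfp322a and Pom121l2. Zfp184 encodes a zinc finger protein and lies between subclusters 1 and 2. It had 33 bulk read pairs, in 10 of 12 libraries, and 125 double positive read pairs, in 5 of 5, and its loops led to subclusters 1, 2 and 3. Abt1, a factor of ribosome assembly whose start lies before subcluster 3, had 34 and 115, also with all 3 subclusters. Hfe, which acts in iron balance and lies within subcluster 3, had 29 and 43. Zfp187, Zkscan3 and Zfp322a are further zinc finger genes, and Btn1a1 and Btn2a2 encode butyrophilins.

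Other replication histone genes lie in smaller groups on other chromosomes. Of the 12 genes named Hist2h, Hist3h or Hist4h, all were tested, and 7 were higher, with a median of 0.88, where 20.9% of all genes were higher and 42.5% lower, with a median of -0.50. Hist2h2aa1 and Hist2h3c1 had the same read pairs, as had Hist2h4 and Hist2h3b, so the 7 are not separate measurements. Over shared anchors 1 was higher, Hist4h4 at a log2 fold change of 0.92 (adjusted p = 0.00559, edgeR), and 2 were lower, Hist3h2a at -0.83 and Hist3h2ba at -0.94. Of all genes 25.9% were higher and 9.97% lower there. The median was 0.08 over the 12 and 0.43 over all genes. The tested Hist1h members had medians of 1.21 and 0.29 on the same scales.

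Genes of the histone locus body and of histone RNA 3′ ends went both ways: of 17 tested, 6 were higher and 4 lower, with a median of 0.14 beside -0.50 over all genes. Among the lower were Gon4l (62 bulk read pairs) and Ccne2 (21), which had none in double positive cells and were not tested over shared anchors. Over shared anchors 6 of 15 were higher and 1 lower, against 25.9% and 9.97% of all genes, with a median of 0.53 beside 0.43. The largest increase was at Zfp473, which encodes a protein of histone RNA processing, with 10.6 ± 8.79 CPM in bulk and 104 ± 16.3 in double positive libraries (log2 fold change 3.04, SE 0.38, adjusted p = 2.75e-08, edgeR). Npat, the cyclin E target that activates histone genes, had 6 bulk and 24 double positive read pairs (log2 fold change 1.95, SE 0.63, adjusted p = 0.00775, edgeR). E2f1, a regulator of entry into S phase, was lower at -1.57 (SE 0.29, adjusted p = 1.67e-05, edgeR) and -1.95 over shared anchors. Slbp, whose product binds the stem-loop, had 132 bulk and 145 double positive read pairs (log2 fold change 0.40, adjusted p = 0.183, edgeR).

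Of a list of histone variants, 4 of 10 tested genes were higher and 3 lower, with a median of 0.25, and over shared anchors 4 were higher and 2 lower, with a median of 0.44. Over all genes 20.9% were higher and 42.5% lower with all loops, and 25.9% and 9.97% over shared anchors. Among the higher was H2afx, which carries a stem-loop after its stop codon as the members do. H3f3b, a gene for the replacement histone H3.3, was higher at 1.00 (SE 0.19, adjusted p = 2.39e-05, edgeR), while H3f3a, which encodes the same protein, was lower at -1.80 (SE 0.40, adjusted p = 0.000197, edgeR). H2afj was higher at 1.29, with the same read pairs as its neighbour Hist4h4. Of 26 tested DNA replication genes 7 were higher and 8 lower, with a median of 0.26. Among the lower were Rpa1, Gins1, Rpa3 and Lig1, which had no read pair in double positive cells and were not tested over shared anchors. Over shared anchors 8 of 18 were higher and 0 lower (edgeR, 1 at an unadjusted p under 0.05), with a median of 0.80 beside 0.43 over all genes. Pola2, a subunit of DNA polymerase alpha, was the first by p, at 1.80 (SE 0.24, adjusted p = 1.27e-07, edgeR).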

How the data were processed

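H3K27ac HiChIP was read in 12 bulk and 5 double positive libraries. The authors digested chromatin with MboI, aligned reads to mm9, used HiC-Pro per the labels and deposited counts of read pairs per loop, with no normalization. Each group was listed on its own anchors, and most loops hold a single read pair, which limits precision.

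Overlapping anchors were joined, and counts were summed per anchor, per gene (anchors within 5 kb of a TSS), per loop and per pair of 50 kb bins. Features of 20 or more read pairs, spread over 5 or more libraries, were tested with the edgeR 4.0.16 quasi-likelihood test (TMM, R 4.3.3) over all features, adjusted by Benjamini-Hochberg at 0.05. Alternatives were DESeq2 1.42.0, library size alone, TMMwsp, other filters, thinned libraries, other windows, gaps and bins, shared anchors, replicates 1 to 5 with a replicate block, and each double positive replicate left out. TMMwsp and the fit of replicates 1 to 5 without the block were chosen after seeing the data. Tests were tried on simulated data: of genes changed 4-fold, 94% of increases and 59% of decreases were recovered, and 6.71% of calls were false, among 14120 genes. For anchors 71% and 11% were recovered. At every level the simulated data had 200 changed features and lacked the difference in anchor sets between the groups. These rates can therefore differ from those in the real data.

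Members and gene lists were chosen with earlier results of these data known. Named were the 3 members with the most read pairs in each subcluster, the 5 members, anchors and loops with the smallest p in each direction among those called, the 5 anchors, loops and bin pairs and the 10 partners with the most read pairs, and, from the other lists, genes chosen after their values were seen. Labels do not say that the libraries of either group came from separate cultures, or the double positive ones from separate sorting runs. The p-values therefore measure the spread between these libraries. A marker of the blood list, and the sum over that list, are not reported here. No pairing of the groups by replicate number was seen, though sparse counts cannot settle this. No 2 libraries agreed within sampling noise. Python 3.11.15 with pandas 2.3.3, scipy 1.17.1 and matplotlib 3.10.9, and samtools 1.23.1, were used.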

Additional observations from a re-analysis of the deposited data

Results flagged for a closer look

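Of 41 values examined over the 5 double positive libraries, 4 had a library far from the others, where chance gives about 1 in 20. Hist1h2bl had 302 CPM in replicate 3 beside a median of 230. The loop from Hist1h3e to the anchor of Hist1h2ae had 59.3 in replicate 1 beside a median of 16.3, and the loop from the anchor of Hist1h2ab to that of Hist1h4a had 2.70 in replicate 1 beside a median of 23.7. The bin chr13:23650001-23700000 paired with itself had 192 in replicate 1 beside a median of 87.8.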

How the results depend on the processing

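The Hist1h genes called higher were 40, and from 32 (replicate block) to 47 (library size alone) under the other settings, except over shared anchors, where 10 were higher and 6 lower. Genes called lower were 1, but 0 with at least 50 read pairs, thinned libraries, a 2.5 kb window or replicates 1 to 5 with or without the block, and 3 with no filter. Anchors called higher were 23, but 9 over shared anchors and 15 in replicates 1 to 5 without the block (16 with it). Anchors called lower were 2, but 1 with at least 50 read pairs or thinned libraries, 6 with no filter and 0 with a 2.5 kb window. Loops called higher were 8, but 4 by DESeq2, 27 when scaled by library size, 1 under the filter of 50, 5 thinned, 0 with the replicate block and 2 in the same libraries without it. Loops called lower were 2, but 1 with library size alone or shared anchors and 0 with no filter or thinned. Bin pairs called higher were 11, but 27 when scaled by library size, 7 under the filter of 50, 3 with the replicate block, 6 without it and 6 over shared anchors, and 1 bin pair of 100 kb was lower. Scaling by library size alone moved the median log2 fold change of all loops from 0.78 to 2.99 and of all genes from -0.50 to -0.30.

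Leaving out 1 double positive library gave 36 to 42 higher and 1 lower gene, 19 to 22 higher and 2 lower anchors, 4 to 6 higher and 2 to 4 lower loops, 9 to 11 higher and 0 lower bin pairs, shares within subclusters of 45.1% to 47.2% and between them of 8.6% to 9.1%, and ratios of 6.84 to 7.7 at 1000 to 2000 kb and 1.1 to 1.2 at 5 to 20 kb.

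With a gap of 50 kb the shares were 33.0% within and 12.8% between subclusters in bulk, and 37.9% and 17.2% in double positive cells, and with a gap of 500 kb the last was 6.8%. Counting each loop once gave 32.0% within in bulk, and 32.7% within and 12.6% between in double positive cells. Shared anchors gave 54.9% within and 9.1% between in bulk, and bulk ratios of 1.19 at 5 to 20 kb and 8.67 at 1000 to 2000 kb. A chromosome 13 background gave 11.9 in bulk and 1.43 in double positive cells at 5 to 20 kb, and 4.31 in double positive cells at 1000 to 2000 kb.

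Over shared anchors 17 of 49 genes, 5 of 27 anchors, 2 of 29 loops and 6 of 26 bin pairs changed sign, of which 8, 2, 0 and 0 had been called with all loops. Among the genes, anchors, loops and bin pairs named by the rule, log2 fold changes that changed sign were the following, and the cause was not tested. Over shared anchors these were genes Hist1h4j (-0.28) and Hist1h4h, Hist1h2af and Hist1h3g (-0.61), the anchors of Hist1h4h (-0.52), Hist1h4d (-0.31), Hist1h3e (-0.70) and Hist1h2ae (-0.10), and the bin pairs 23600001 with 23650001 (-0.30) and 23650001 with itself (-0.19). With the replicate block they were Hist1h4h (-0.20), Hist1h2af and Hist1h3g (-0.0028), the anchors of Hist1h4h (-0.28), Hist1h4d (-0.02) and Hist1h3e (-0.26), and the bin pairs 23600001 with 23650001 (-0.28), 23650001 with itself (-0.47) and 23600001 with itself (-0.29). Replicates 1 to 5 without the block gave -0.18 for Hist1h4h, -0.27, -0.0036 and -0.25 for these anchors and -0.27, -0.34 and -0.21 for these bin pairs. With at least 50 read pairs, values were -0.08 and -0.06 for the anchors of Hist1h4h and Hist1h3e and -0.10, -0.31 and -0.13 for the bin pairs. Hist1h4j was -0.30 with a 2.5 kb window, and bin 23650001 with itself ran from -0.27 (without double positive replicate 1) to 0.14 with 1 double positive library left out. Loops from Hist1h3e to the anchors of Hist1h2ae, Hist1h4d and Hist1h1d turned to 1.66, 1.60 and 1.86 with library size alone and to 0.67, 0.59 and 0.85 with no filter, the last to 0.84 when thinned, and the loop from Hist1h4h to Hist1h3e to 0.29 with library size alone.

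Same-numbered replicates did not deviate together (r from -0.010 to 0.023 over 6549 genes, and 1 of 5 correlated best with its own number). With counts this sparse, such values cannot settle whether the numbers pair the libraries. Single loops hold few read pairs, and decreases of anchors, bin pairs and loops were rarely recovered in simulated data (11%, 11% and 7% at 4-fold).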
